A study of Homo sapiens with 32 samples.

Results

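The comparison described here is that of LNCaP cells after 3 h of R1881 with the same cells at 0 h, by cap analysis of gene expression (CAGE). It was chosen by the time and replicate number in the column names of the R1881 table, which gave 2 libraries at 3 h and 2 at 0 h, or 4 of the 32 libraries of the series. Each 3 h library was set beside the 0 h library of the same replicate number. LNCaP is a cell line from a lymph node metastasis of a human prostate cancer that depends on androgen for growth, and R1881 (methyltrienolone) is a synthetic androgen that binds the androgen receptor. All 4 libraries came from cells held in medium without phenol red and with serum stripped of hormone before R1881 was added. The sample labels give 1 nM R1881, for the 0 h libraries as well, while the treatment protocol gives 10 nM for 24 h, so the dose is not settled by the sources used here. No library of vehicle-treated cells accompanies the 3 h libraries, so R1881 and the time spent in culture cannot be told apart within the time course. Nor do the labels say whether the replicates were separate cultures, so the p-values measure only the spread between libraries, which may be technical. That spread was estimated over all 14 libraries of the time course.

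The androgen receptor is a transcription factor that is held inactive in the cytoplasm until an androgen binds it. The bound receptor enters the nucleus, attaches to DNA elements near its target genes and recruits the factors that raise or lower their transcription. Responses in the first hours include genes on which the receptor acts directly, before other newly made proteins take part. CAGE reads the capped 5′ ends of RNA, so that a tag marks where a transcript started, and the number of tags at a site measures how much capped RNA began there. In such bulk samples, fewer cells using a site and less RNA per cell cannot be told apart. The deposited tables pair no start site with a gene, and the gene table used here is of another genome build, so each site is given by its hg19 position and strand, with bases counted from 1, and no gene names, gene lists or marker genes were used.

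The 3 h libraries held 407657 tags in replicate 1 and 2167913 in replicate 2, against 1075743 and 3108871 in the 0 h libraries. Replicate 2 was thus the deeper library at both times, and the 3 h replicate 1 library was the thinnest of the 4. In RPM (tags scaled by the authors to a common library total), 3 tags were worth 6.25 and 1.16 RPM in the 3 h libraries, against 2.37 and 0.827 RPM in the 0 h libraries, so a site of a few RPM rests on very few tags in 3 h replicate 1. The replicates correlated with r = 0.851 at 3 h and r = 0.896 at 0 h across the sites tested, which are not independent of each other. Libraries at 6 h and 18 h stood apart from the rest of the time course, with median correlations to the other libraries between 0.665 and 0.760. They share a fit with the libraries compared here. Through its estimates of the spread and of the replicate difference they bear on the test of 3 h against 0 h.

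In a fit of all 14 libraries of the time course, few start sites changed detectably at 3 h, and those that did all rose. Of 15999 sites tested, 46 rose (0.288%) and 0 fell (0.0%) by edgeR's quasi-likelihood F test with replicate number as a block and a Benjamini-Hochberg adjusted p under 0.05. At an unadjusted p under 0.05, 405 sites were higher and 67 lower. DESeq2 called 47 higher and 0 lower at the adjusted threshold, and 360 higher and 44 lower at an unadjusted p under 0.05. The median log2 difference over all sites tested was -0.02, with quartiles of -0.28 and 0.28. Of the 46 sites, 43 were higher at 3 h in both replicate pairs, against 26.6% of all sites tested, and in 43 both 3 h libraries lay above both 0 h libraries, against 13.6% of all sites. The 46 were chosen by a test on these same libraries, so these counts describe them and add no support to the calls. The adjusted p of the last site called was 0.0467, and that of the next site outside the threshold was 0.0513. The calls depended on the replicate block and on single libraries: 0 sites passed without the block, 0 without 3 h replicate 2, 0 without 0 h replicate 2 and 10 without 0 h replicate 1, while 49 rose without 3 h replicate 1. The number and direction of the calls also depended on which other libraries shared the fit. With replicate 2 of 6 h and 18 h left out, 88 sites rose and 3 fell. The 4 libraries of 3 h and 0 h alone, with the block, gave 272 that rose and 56 that fell.

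**Figure D1:**
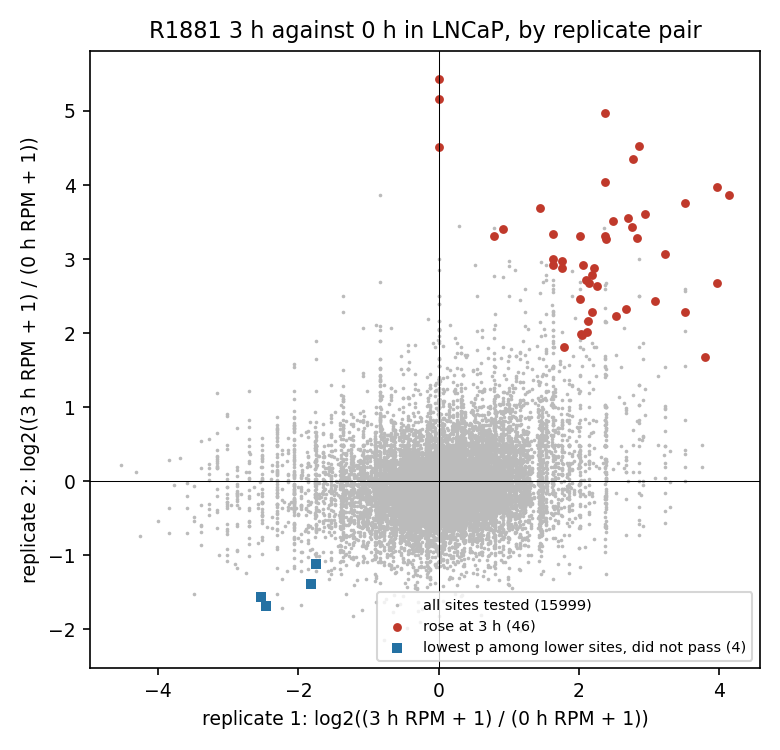
Each point is 1 start site, with the difference between 3 h and 0 h in replicate 1 on the horizontal axis and in replicate 2 on the vertical axis, both as log2 of the ratio of RPM + 1. The 46 sites that rose are red and the 4 lower sites that did not pass are blue squares; the red points had a median of 2.19 in replicate 1 and 3.03 in replicate 2, against 0.09 and -0.06 over all sites tested, and 3 of them lie at 0 in replicate 1.

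The sites that rose were mostly sites with little activity in the hormone-starved cells. Their mean level had a median of 20.7 RPM at 3 h (4.34 to 576), against 2.13 RPM at 0 h (0 to 73.2). At 0 h, 6 of the 46 had no tag in either library (13.0%, against 0.488% of all sites tested), another 11 had 1 to 3 tags in the 2 libraries together, and 29 had more. In all, 35 of the 46 had a mean under 10 RPM at 0 h (76.1%, against 36.4% of all sites tested). Such a site could pass the low-count filter through the libraries in which it was high, so these shares are a description. The log2 difference of the 46 had a median of 3.50 and ran between 1.81 and 8.70.

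The sites that rose were spread over both strands and several chromosomes. There were 21 on the plus strand and 25 on the minus strand. Chromosome 2 held 8 of them (17.4%, against 5.98% of all sites tested), chromosome 8 held 7 (15.2%, against 3.54%), chromosome 1 held 6 (13.0%, against 10.1%), and chromosomes 11 and 18 held 4 each (8.70%, against 6.01% and 1.61% of the sites tested). Chromosome 19 held 0 of them and 7.23% of the sites tested. The clusters that rose were 230.5 bp wide at the median (9 to 631 bp), against 152 bp over all sites tested.

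The most active of them was chr21:42879811-42880186 on the minus strand. It had 723 and 429 RPM at 3 h, against 111 and 35.5 RPM at 0 h. Both 3 h libraries were far above both 0 h libraries, and the 0 h libraries differed from each other by a larger ratio than the 3 h libraries did. The log2 difference was 3.00 (SE 0.465, edgeR adjusted p = 0.00612), on 347 and 1106 tags at 3 h against 140 and 129 tags at 0 h. With each of the 4 libraries left out in turn it was 2.42 to 3.76, lowest without 0 h replicate 2 and highest without 0 h replicate 1. A cluster on the opposite strand, chr21:42955234-42955528, lies 75048 bp away and also rose.

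The next 5 sites in order of their level at 3 h were already in use at 0 h. chr8:23540115-23540492 on the minus strand had 394 and 239.5 RPM at 3 h, against 94.2 and 30.9 RPM at 0 h (log2 difference 2.39, SE 0.408, adjusted p = 0.00965). The plus-strand site chr1:228871105-228871551 had 189.7 and 166 RPM at 3 h, against 38.8 and 25.9 RPM at 0 h (2.50, SE 0.530, adjusted p = 0.0411). The 3 h libraries were close together at this site, and both lay well clear of the 0 h libraries. chr8:102504606-102504763 on the plus strand had 113 and 159 RPM at 3 h, against 26.9 and 39.1 RPM at 0 h (1.997, SE 0.377, adjusted p = 0.0188). At chr2:9143690-9143917 on the minus strand the libraries had 79.2 and 107 RPM at 3 h, against 17.4 and 23.1 RPM at 0 h (2.16, SE 0.395, adjusted p = 0.0159). At none of these sites did the groups overlap. The remaining one, chr8:23537624-23537654 on the minus strand, had 133 and 91.1 RPM at 3 h, against 38.8 and 11.6 RPM at 0 h (2.33, SE 0.438, adjusted p = 0.0187), and lies 2461 bp from the first of them. With each of the 4 libraries left out in turn, the log2 differences of these 5 sites were 1.81 to 3.01.

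**Figure D2:**
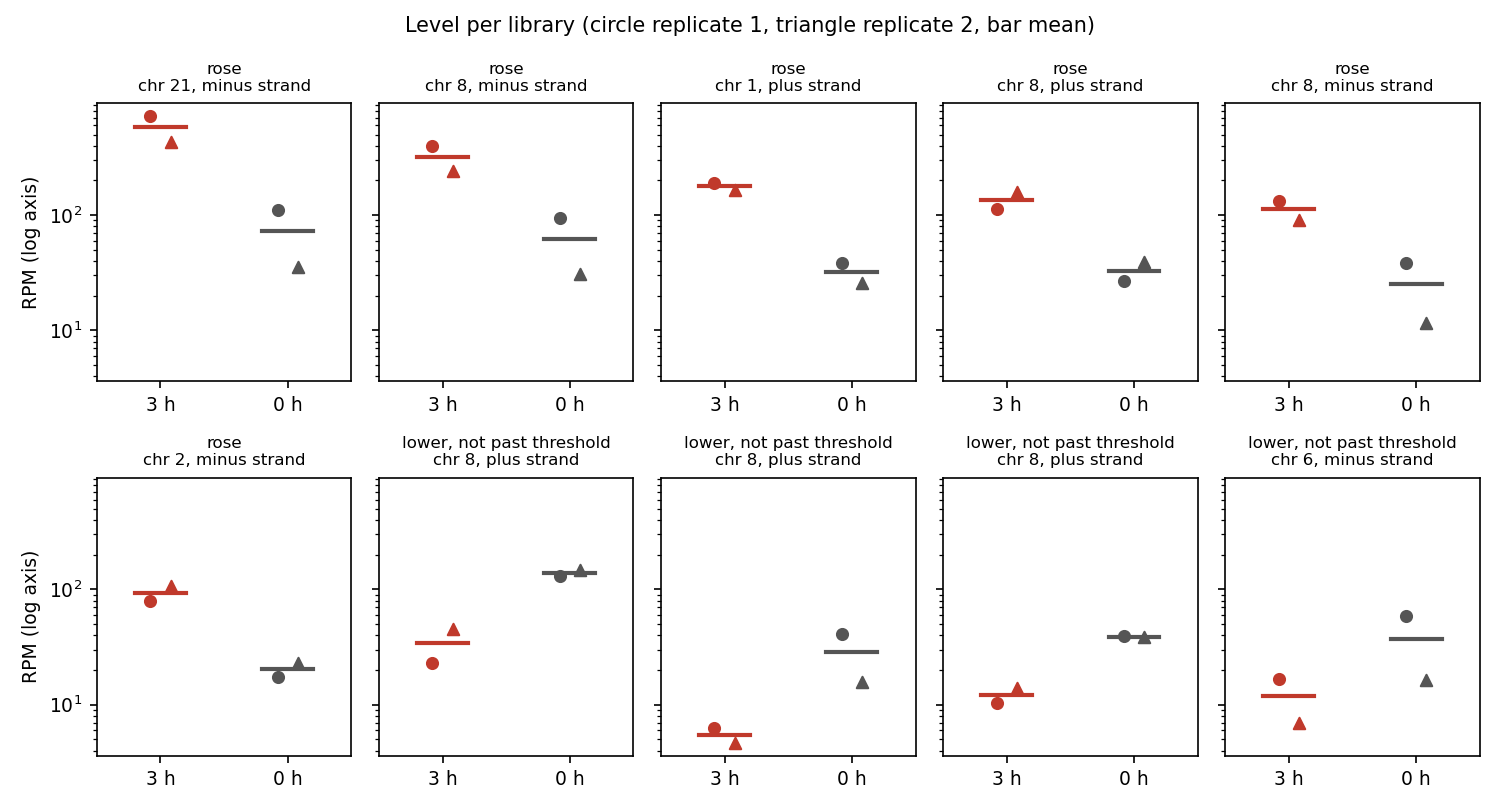
Level in RPM (log axis) of the 6 sites named for their level and of the 4 lower sites that did not pass, 1 panel per site, with the 3 h libraries left of the 0 h libraries, a circle for replicate 1, a triangle for replicate 2 and a bar for their mean. Both 3 h libraries lie above both 0 h libraries at the 6 sites that rose, and the 4 lower sites are below 0 h in each replicate.

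Among the 16 sites named for the size of their change, several had almost no tags at 0 h. The largest was chr11:92922890-92922937 on the plus strand, a cluster of 48 bp, which had 6.25 and 22.1 RPM at 3 h, against 0 tags in both 0 h libraries. Its level was at least 8.86-fold higher at 3 h, taking 3 tags in each 0 h library as the floor, and the fit gave an adjusted p of 0.00965, but replicate 1 rests on 3 tags. The minus-strand site chr2:179770056-179770259 had 4.17 and 39.1 RPM at 3 h, against 0 and 0.275 RPM at 0 h. Here 2 and 101 tags at 3 h stood against 0 and 1 tag at 0 h, a pooled ratio of 165 with a 95% interval of 28.9 to 6569 (exact binomial, counting error only), and an adjusted p of 0.00144. chr20:56338251-56338488 on the minus strand was more even between replicates, with 14.6 and 19.0 RPM at 3 h, against 0 and 0.275 RPM at 0 h (pooled ratio 89.6, interval 15.4 to 3600, adjusted p = 0.00965). The replicates were as close at chr1:227204567-227204796 on the minus strand, with 16.7 and 21.7 RPM at 3 h, against 0 and 0.551 RPM at 0 h (pooled ratio 51.2, interval 13.6 to 432, adjusted p = 0.00867). In all 4 of these sites the 0 h libraries together held no more than a few tags, so the size of the change is known only roughly: with each of the 4 libraries left out in turn their log2 differences were 4.75 to 8.28, lowest without 3 h replicate 2 and highest without 0 h replicate 2, both at the chromosome 20 site.

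Several of the other sites named for their change had tags in both 0 h libraries, and 4 of those are described here. chr8:49833777-49834012 on the minus strand had 16.7 and 47.7 RPM at 3 h, against 1.58 and 1.38 RPM at 0 h, a log2 difference of 4.57 (SE 0.618, adjusted p = 0.00144) that rests on 2 and 5 tags at 0 h. chr8:80992579-80993099 on the minus strand had 25.02 and 109 RPM at 3 h, against 2.37 and 7.99 RPM at 0 h (3.56, SE 0.585, adjusted p = 0.00938). Both pairs moved by a similar ratio there, although replicate 2 was the higher library at each time. chr11:134094966-134095596 on the minus strand had 66.7 and 115 RPM at 3 h, against 11.1 and 9.09 RPM at 0 h (3.37, SE 0.585, adjusted p = 0.0113). At chr2:232790901-232791147 on the minus strand the libraries had 27.1 and 30.6 RPM at 3 h, against 3.16 and 1.93 RPM at 0 h (3.66, SE 0.676, adjusted p = 0.0169). The groups did not overlap at any of these sites. The size of the difference depended on single libraries: without 3 h replicate 2 the log2 differences of the 4, in the order given, were 3.89, 2.19, 1.73 and 2.55, and without 0 h replicate 2 they were 3.65, 4.45, 3.94 and 3.85. Without 3 h replicate 1 they were 4.79, 4.12, 4.13 and 4.22. The other 8 sites named for their change had log2 differences of 3.28 to 4.67 and adjusted p-values of 0.0115 to 0.0467.

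A further 3 sites that rose were seen in 3 h replicate 2 alone, and they are described because of those values. The plus-strand cluster chr2:197059052-197059065, only 14 bp wide, had 0 and 42.2 RPM at 3 h, against 0 tags in both 0 h libraries, and gave the largest fitted log2 difference, 8.70. The plus-strand cluster chr18:69929211-69929219, 9 bp wide, had 0 and 44.6 RPM at 3 h, against 0 and 0.275 RPM at 0 h. In both the replicate pairs disagreed, and later in the course tags above 1 RPM appeared only in replicate 2 at 12 h, with 18.5 and 10.6 RPM. chr16:79634520-79634691 on the minus strand had 0 and 40.7 RPM at 3 h, against 0 and 0.826 RPM at 0 h, and stayed higher in replicate 2 at each later time. Without these 3 sites, 43 remain.

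The chromosome 8 region around chr8:23540115-23540492 held 8 start sites on the minus strand within 4256 bp. All 8 were higher at 3 h in both pairs, against 26.6% of all sites tested. At all 8 the 3 h libraries lay above both 0 h libraries, against 13.6% of all sites. Their log2 differences ran between 1.82 and 3.71. The region was chosen because 2 of its sites passed this same test, and neighbouring sites are not independent, so these counts only describe it. The 2 sites described above passed the threshold. The cluster chr8:23538498-23539176 had 58.4 and 22.5 RPM at 3 h, against 13.5 and 3.31 RPM at 0 h (log2 difference 2.30, SE 0.507, adjusted p = 0.0513), and did not pass. The remaining 5 had adjusted p-values of 0.0974 to 1.

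**Figure D3:**
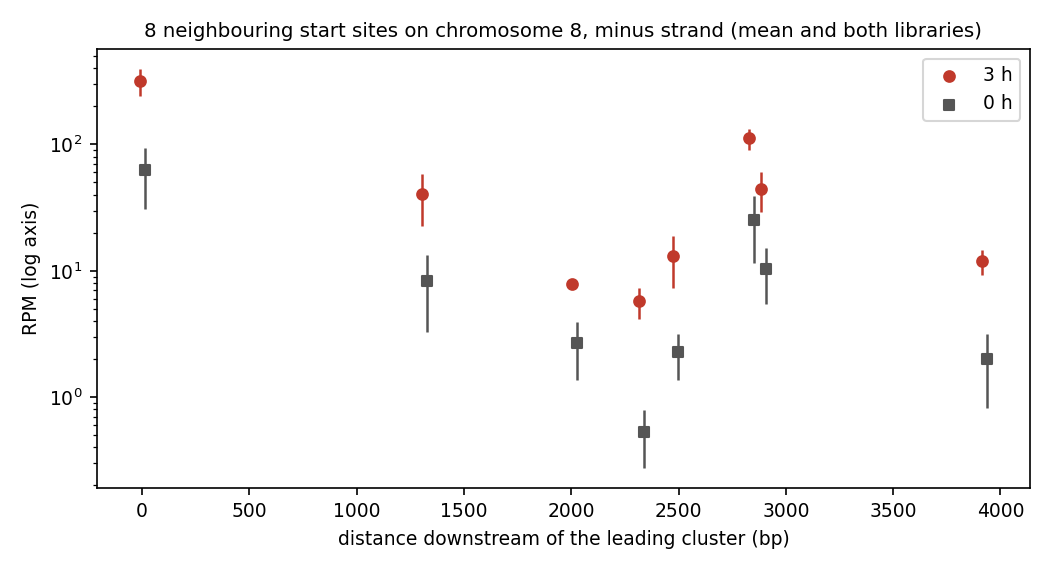
Level in RPM (log axis) of the 8 minus-strand start sites of the chromosome 8 region, against distance in bp downstream of the leading cluster, with the mean of the 3 h or 0 h libraries as a point and a line that joins both libraries. The 3 h libraries lie above both 0 h libraries at all 8 sites (13.6% of all sites tested), with log2 differences of 1.82 to 3.71. The region was chosen for its 2 called sites.

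Sites next to those that rose were mostly higher at 3 h too. On the same strand within 10000 bp, 19 of the 46 sites had 38 tested neighbours, of which 35 had a positive log2 difference, with a median of 1.94 (-0.16 to 5.42) against -0.02 over all sites, and 2 of them were themselves among the 46. On the opposite strand within 1000 bp, 9 sites had 12 neighbours, all with positive differences of 0.09 to 6.01 (median 1.34), and 0 of these passed the test. Over all sites tested the median was below 0, so a positive difference was the less common direction. The largest differences rest on few tags. The 5.42 came from 0 and 4.26 RPM at 3 h, and the 6.01 from 4.17 and 5.04 RPM, each against 0 RPM in both 0 h libraries. Neighbouring start sites can belong to the same gene and are no independent observations. The neighbours of chr11:134094966-134095596 differed among themselves: a same-strand cluster 873 bp away had 10.4 and 38.4 RPM at 3 h, against 17.4 and 42.2 RPM at 0 h (log2 difference -0.16), and an overlapping cluster on the opposite strand had 62.5 and 40.7 RPM at 3 h, against 53.8 and 33.6 RPM at 0 h (0.16). At both of these clusters the groups overlapped. A second overlapping cluster on the opposite strand, chr11:134095366-134095615, had 6.25 and 3.49 RPM at 3 h, against 0 and 0.275 RPM at 0 h (3.95, adjusted p = 0.195), and its groups did not overlap. The other 4 same-strand neighbours there had means of at most 2.21 RPM at 3 h, against at most 1.77 RPM at 0 h.

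A switch from one start site to another within a neighbourhood was not detectable. Among 2045 groups of same-strand sites linked by gaps of at most 10000 bp, edgeR's test for unequal change called 0 (29 at an unadjusted p under 0.05, smallest adjusted p = 0.611). In the leading group, chr12:133404892-133405068 on the minus strand had 4.17 and 6.98 RPM at 3 h, against 0 and 0.275 RPM at 0 h, a log2 difference of 4.50 that did not pass on its own (adjusted p = 0.0935), while its neighbours had differences of -0.03 and 1.06. The second group was led by chr17:7131449-7131551 on the minus strand, with a log2 difference of 4.22 (adjusted p = 0.0935 for the site and 0.982 for the group). In the third, chr17:8055655-8055791 on the minus strand rose by 2.76 on the log2 scale, and its neighbours had differences of 2.18, -0.08 and 0.21.

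No site fell past the threshold, and the 4 lower sites with the smallest p-values are given as values that did not pass. chr8:128748246-128748395 on the plus strand had 22.9 and 45.0 RPM at 3 h, against 131 and 147 RPM at 0 h (log2 difference -1.93, SE 0.489, adjusted p = 0.138). A second plus-strand cluster of that region, chr8:128750403-128751268, had 10.4 and 13.95 RPM at 3 h, against 39.6 and 38.3 RPM at 0 h (-1.70, SE 0.499, adjusted p = 0.331). The 0 h libraries agreed closely at both sites and lay above both 3 h libraries. The plus-strand site chr8:37555891-37556471 had 6.25 and 4.65 RPM at 3 h, against 41.1 and 15.7 RPM at 0 h (-2.22, SE 0.604, adjusted p = 0.208). The last, chr6:154831621-154831826 on the minus strand, had 16.7 and 6.98 RPM at 3 h, against 58.5 and 16.3 RPM at 0 h (-1.54, SE 0.487, adjusted p = 0.464), and its groups overlapped. In a fit of the 4 libraries alone with the block, all 4 sites passed, among 56 that fell and 272 that rose.

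The sites that rose at 3 h followed different courses afterwards. Levels are given below in the order of the 7 times, which were 0, 3, 6, 12, 18, 48 and 72 h, as means of the 2 libraries. The median of these means over the 46 sites was 2.13, 20.7, 23.5, 32.6, 29.3, 27.2 and 16.5 RPM. The highest mean of the course came at 3 h in 7 sites, while 6 h had 10, 12 h had 8, 18 h had 10, 48 h had 5 and 72 h had 6. Replicate 1 was thin at 6 h and 18 h, with 140956 and 128463 tags. There 3 tags were worth 17.1 and 19.45 RPM, so a high mean at those times can rest on few tags. Set against 3 h, the 48 h libraries were higher at 9 of the 46 and lower at 6 by edgeR's test (over all sites, 2.14% were higher and 2.04% lower), and 31 passed in neither direction. Both comparisons use the 3 h libraries, so a 3 h level that happened to be high would enter each, and these counts only describe the sites. Without the block, 2 of the 46 were higher and 0 lower at 48 h. With 3 h replicate 1 left out they were 4 and 3, with 3 h replicate 2 left out 5 and 0, and with 48 h replicate 2 left out 9 and 0.

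The 9 sites higher at 48 h went on gaining level after 3 h. Over the 7 times their median level was 2.65, 17.4, 24.3, 74.2, 124, 234 and 194 RPM. The steepest was chr11:134094966-134095596, with means of 10.1, 90.7, 178, 1292, 1362, 3945 and 2811 RPM. At 48 h its libraries had 5761 and 2129 RPM, against 66.7 and 115 RPM at 3 h, a further log2 difference of 5.05 (SE 0.595, adjusted p = 2.68e-05). chr8:80992579-80993099 followed a similar course, at 5.18, 66.8, 82.4, 216, 280, 510 and 678 RPM over the same times. Most of the level these sites reached was thus added after 3 h. The most active site, chr21:42879811-42880186, had 73.2, 576, 663, 1012, 769, 1464 and 2009 RPM, and its 48 h level did not pass against 3 h (log2 difference 1.45, adjusted p = 0.0619).

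Levels at the 6 sites lower at 48 h than at 3 h came back towards those of 0 h. Over the 7 times their median was 0.671, 21.7, 15.1, 13.5, 9.59, 1.55 and 1.30 RPM. The narrow clusters of chromosomes 2 and 18 seen in replicate 2 are among them, which leaves 4. The minus-strand site chr1:227204567-227204796 had means of 0.275, 19.2, 15.4, 16.5, 14.7, 1.17 and 0.853 RPM (48 h against 3 h, log2 difference -4.21, SE 0.814, adjusted p = 0.00369). At chr2:175201694-175201820 on the plus strand the libraries had 20.8 and 7.36 RPM at 3 h, against 1.58 and 0.551 RPM at 0 h, and 48 h against 3 h differed by -2.84 on the log2 scale (SE 0.765, adjusted p = 0.035). The lower site chr8:128748246-128748395 had mean levels of 12.9, 30.8, 14.8, 6.78 and 5.28 RPM at the 5 later times, all below its 0 h libraries.

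**Figure D4:**
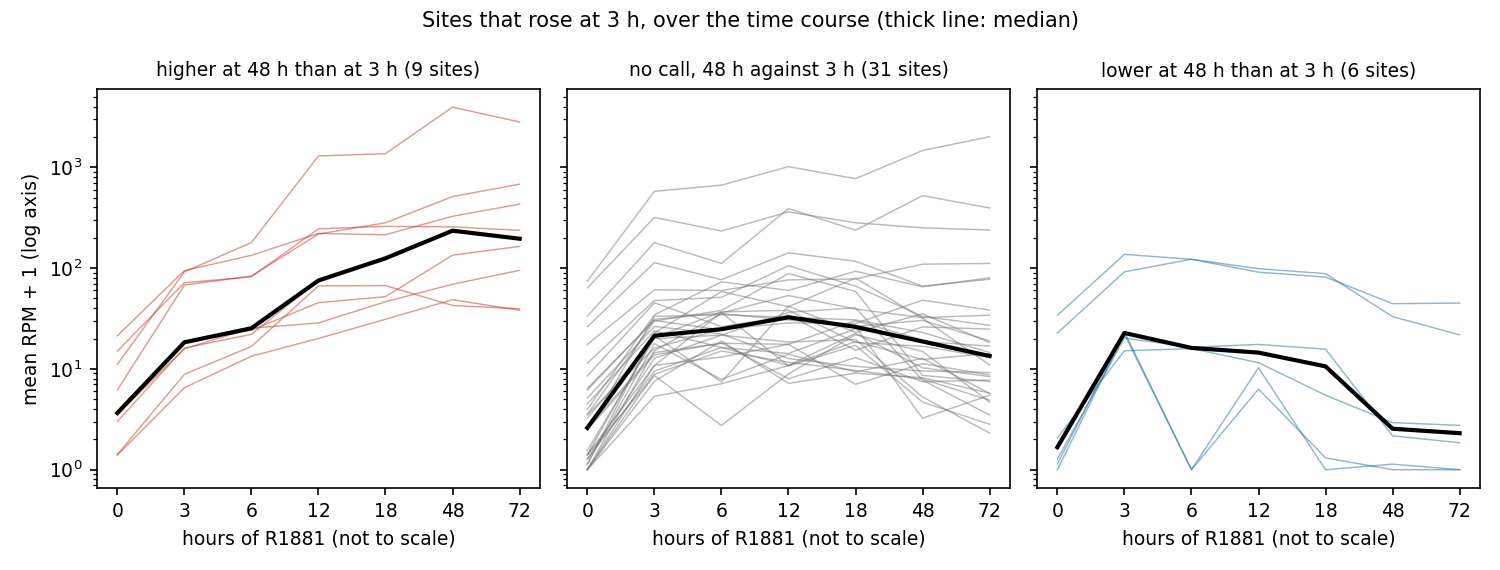
Mean level of the 2 libraries per time, as RPM + 1 on a log axis, against hours of R1881 (not to scale), with 1 thin line per site that rose at 3 h, a thick line for the median, and panels for the 9 sites higher, the 31 neither higher nor lower and the 6 lower at 48 h than at 3 h. The median RPM is 234 at 48 h in the first panel, between 12.4 and 31.5 after 0 h in the second and 1.55 at 48 h in the last.

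A separate experiment in the series had vehicle libraries, although none at 3 h and none beside R1881. There LNCaP cells received 10 nM dihydrotestosterone (DHT, the natural ligand of the receptor) or ethanol for 6 h or 24 h, with 1 library per condition, so no test of the conditions was possible and the intervals cover counting error only. Entries of that experiment are each named by a single position, and all reached at least 10 RPM in some library. Of these 13294 entries, 8549 share a name with a cluster of the time course. An entry may thus hold the tags of a whole cluster rather than of a single base. Among the 46 sites, 25 were found there by an identical name. Matching by any listed position inside a cluster gave 30 sites, with median ratios of 4.80 for DHT over ethanol at 6 h and 2.15 at 24 h, and the counts below are for the 25. At 6 h, 23 of the 25 were higher with DHT than with ethanol (39.8% of all positions), 19 of them at least 2-fold (1.1% of all positions), and the median ratio was 4.80 over the 23 sites with a ratio (0.539 to 23.1) against 0.960 over all positions. At 24 h, 21 of the 25 were higher with DHT than with ethanol (41.7%), 13 at least 2-fold (1.85%), with a median ratio of 2.15 over 23 sites. The experiment's hormone, dose and times differ from those of the R1881 course, so the values stand side by side only. An entry could also reach 10 RPM through a DHT library itself. Among the LNCaP libraries compared, chr2:232790901-232791147 did so only with 6 h of DHT. The 21 sites without an identical name are not in these counts, which therefore only describe the sites listed.

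The vehicle alone was also set against untreated cells, with the same 6 h ethanol library. Between 6 h of ethanol and 0 h the median ratio was 1.32 over the 23 sites with a ratio (0.528 to 4.75), against 1.04 over all positions, 16 of the 25 were higher (57.2% of all positions) and 4 were at least 2-fold higher (1.9%). The chromosome 21 minus-strand site had 299.8 RPM with 6 h of DHT, against 35.7 RPM with ethanol, a ratio of 8.39 (interval 7.35 to 9.61), and 245 RPM with 24 h of DHT, against 38.0 RPM. The leading site of the chromosome 8 region, chr8:23540115-23540492, had 254 RPM with 6 h of DHT, against 33.2 RPM with ethanol (7.65, interval 6.67 to 8.81). The DHT libraries exceeded their ethanol libraries several times over at both sites. chr2:11679932-11680206 on the plus strand had the highest ratio, with 6.84 RPM under DHT, against 0.297 RPM under ethanol (23.1, interval 6.13 to 195).

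Of the 25 sites, 14 had an interval above 1 at both times and 7 had one above 1 at 6 h that included 1 at 24 h, and the difference between the times was not tested. The share of all positions with such intervals was not worked out, so these counts only describe the sites. Where tags are many, an interval can exclude 1 at a small ratio, as at chr8:102504606-102504763 at 24 h (1.16, interval 1.04 to 1.31). Among the 7, chr6:134495946-134496043 on the minus strand had 10.4 and 27.5 RPM at 3 h of R1881, against 0 and 1.10 RPM at 0 h, and 8.58 RPM with 6 h of DHT, against 1.19 RPM with ethanol (7.23, interval 3.50 to 17.3), but 0.866 RPM with 24 h of DHT, against 1.01 RPM with ethanol. Likewise, chr2:232790901-232791147 had 10.8 RPM with 6 h of DHT, against 2.37 RPM with ethanol, and 2.85 RPM with 24 h of DHT, against 2.53 RPM with ethanol. Of the 25 sites, only chr18:57567142-57567437 on the plus strand had an interval below 1 at 6 h, with 12.7 RPM under DHT, against 23.6 RPM under ethanol (0.539, interval 0.421 to 0.689). At 24 h that site had 33.7 RPM under DHT, against 15.7 RPM under ethanol (2.15, interval 1.73 to 2.68), and its 6 h ethanol library was 2.29-fold above untreated cells (interval 1.68 to 3.17). The narrow chromosome 2 cluster chr2:197059052-197059065 was listed at 0 in all 5 of the LNCaP libraries compared. Of the 4 lower sites, 3 had a listed position inside the cluster, and their ratios of 6 h DHT to ethanol were 0.810 to 0.935, with 1 interval below 1.

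**Figure D5:**
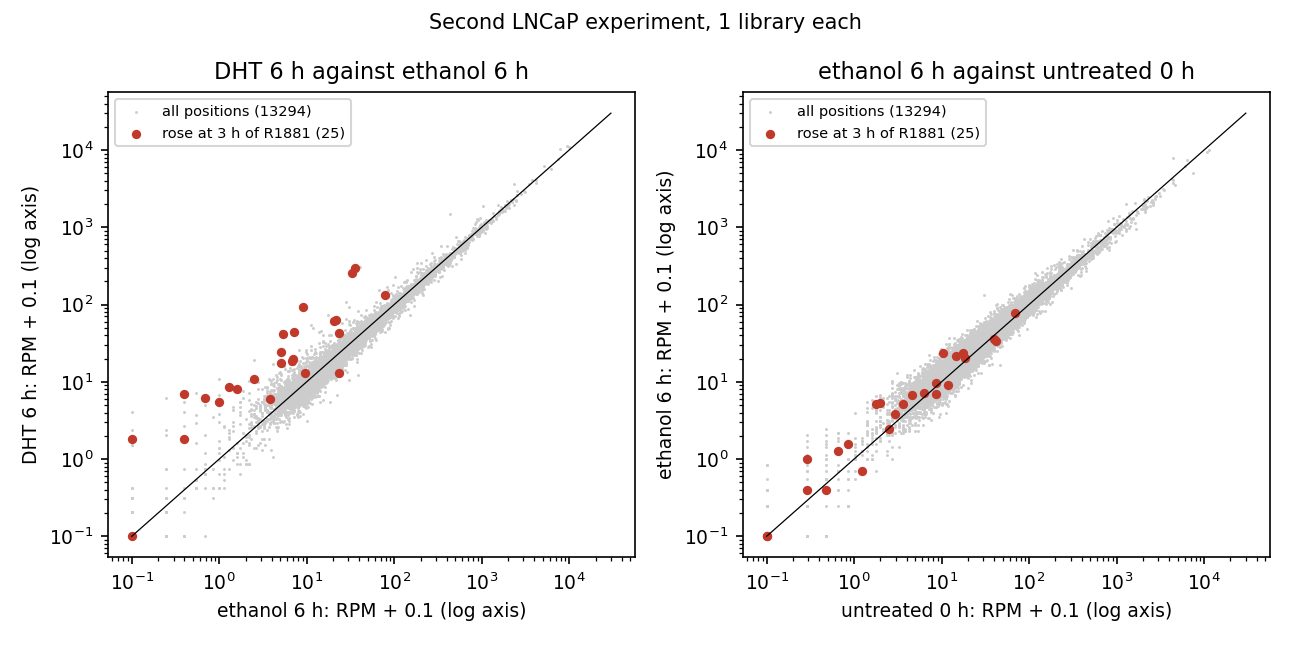
Level as RPM + 0.1 on log axes, 1 library per axis, with 6 h of DHT against 6 h of ethanol in the left panel and 6 h of ethanol against untreated 0 h in the right, for all 13294 positions (grey) and the 25 sites that rose with 3 h of R1881 (red). Above the diagonal, the group on the vertical axis is the higher, as at 23 of the 25 sites in the left panel and 16 in the right.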

How the data were processed

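Capped RNA was sequenced on a HeliScope, per the labels' protocols, and the build was hg19, per the submitters' processing notes. Aligner, cluster calling and filters are not given in the sources used here. Per the file headers, the deposited tables hold raw tag counts and RPM, and each RPM value is the count times 1 factor per library. Tables were matched to samples by column name.

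Counts were tested with edgeR 4.0.16 in R 4.3.3 (TMM, quasi-likelihood F test, 1 coefficient per time and a replicate block over 14 libraries). Of 19534 clusters, filterByExpr with a minimum count of 10 kept 15999. P-values were adjusted by Benjamini-Hochberg across the sites kept, and 0.05 was the threshold. The SE was the absolute log2 difference divided by √F. Same-numbered libraries deviated together in 21 of 21 pairs of times (r 0.149 to 0.596, 0.596 between 3 h and 0 h), so the block was kept. Replicate 1 was also the shallower library at every time. This check cannot separate a shared difference in depth from a pairing of the cultures. The pairing comes from the column names.

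Named sites were higher in both pairs with a mean of at least 5 RPM: the 16 largest changes and the 6 highest levels at 3 h. As no site fell, 4 lower sites of at least 10 RPM with the smallest p were added. The comparison and these rules were chosen with earlier results of these data known. The script was tested on simulated data. Other normalizations, filters, DESeq2 1.42.0 and leaving out libraries were tried.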

Additional observations from a re-analysis of the deposited data

Results flagged for a closer look

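At 6 of the named sites the difference between 48 h and 3 h itself passed edgeR's test, so that the change from 0 h differed between the 2 times. The log2 difference of 48 h against 3 h was 5.05 at chr11:134094966-134095596 on the minus strand, 3.01 at chr8:80992579-80993099 on the minus strand and 1.91 at chr2:9143690-9143917 on the minus strand. It was -4.21 at chr1:227204567-227204796 on the minus strand, -2.84 at chr2:175201694-175201820 on the plus strand and -1.55 at chr8:102504606-102504763 on the plus strand. The 3 h libraries enter both comparisons, and their part in these differences was not tested.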

How the results depend on the processing

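Leaving the replicate block out of the fit gave 0 rises and 0 falls at 3 h, and 35 sites higher and 29 lower at 48 h than at 3 h. A fit of the 4 libraries alone gave 272 that rose and 56 that fell with the block, and 0 and 0 without it. Without replicate 2 of 6 h and 18 h, 88 rose and 3 fell, and 785 were higher and 623 lower at 48 h. Without both replicates of those times, 76 rose and 3 fell, and 770 were higher and 615 lower at 48 h. With no filter 79 rose and 1 fell, and with a minimum count of 30, 16 rose. Leaving out 1 library gave 0 to 49 that rose, 0 to 0 that fell, and at 48 h 47 to 188 higher and 49 to 216 lower. RLE size factors gave 46, library totals 45 and DESeq2 47 rises, of which 46, 44 and 38 were shared. The neighbourhood test called 0 with links of 1000, 10000 and 50000 bp, without the block, without replicate 2 of 6 h and 18 h, and with each of the 4 libraries left out; it was not run under the other settings. Of the 302 alternative values of the 22 named rises, 188 kept direction and side of the threshold, 114 no longer passed and 0 reversed. Of 54 values of the 4 lower sites, 7 newly passed. The cause of these differences was not tested. Depth limits the low sites most: 3 tags are 6.25 RPM in 3 h replicate 1, and 17.1 and 19.45 RPM in replicate 1 of 6 h and 18 h.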
